A study of Mus musculus with 18 samples.

Results

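The dentate granule cell is the principal neuron of the dentate gyrus, and 10 genes known to mark it in the adult mouse hippocampus were examined here: Prox1, Dsp, C1ql2, C1ql3, Pdzd2, Dock10, Tdo2, Calb1, Trpc6 and Lct. The members were taken by name, as every probe set (a group of short oligonucleotides on the array that reads a transcript) assigned to these genes, which gave 25 of the 45101 probe sets of the array. Of these, 21 passed the filter on dim signals and were tested among 27022. The 4 that did not pass were a pair from Pdzd2 and 1 each from Tdo2 and Calb1, so every gene kept at least 1 tested probe set. Total RNA from whole mouse hippocampus was hybridised to 18 Affymetrix expression arrays, 6 from young animals, 6 from aged animals with good spatial memory (aged unimpaired) and 6 from aged animals with poor spatial memory (aged impaired). The question put by the design is whether hippocampal expression differs between aged animals that keep spatial memory and those that do not. The labels put the young animals, too, among those with unimpaired spatial memory, and give no age in months, strain, sex or genotype. The labels do not say that the 6 arrays of a group came from separate animals, so the p-values measure the spread between these samples, which may be technical.

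Granule cells receive the main cortical input to the hippocampus through the perforant path and send mossy fibre axons to mossy cells and to pyramidal cells of CA3. They are also the neurons that are added to the hippocampus in adult life, from progenitors in the subgranular zone. Prox1 sets and keeps granule cell identity, the C1q-like proteins C1ql2 and C1ql3 are secreted at mossy fibre synapses, and calbindin (Calb1) buffers calcium in the mature cells. Not all of these genes are limited to granule cells within the hippocampus: Calb1 is also expressed by CA1 pyramidal cells and some interneurons, Prox1 by some interneurons, and C1ql3 by other cortical neurons. Because each array measured a whole hippocampus, fewer granule cells and less RNA per granule cell cannot be told apart in any of the values below.

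Each of the 10 genes gave signal above the filter in these hippocampi. The level is given as log2(signal + 16) after each array was scaled to a common trimmed mean, and for each gene the probe set with the highest mean signal stands as its main probe set. The mean of the main probe sets lay between the 64.5th percentile (Trpc6) and the 97.5th percentile (C1ql3) of all probe sets. As a gauge of a dim signal, 11 of 18 genes specific to other organs fell below the filter, and the median of the 18 was 5.26 (range 4.42 to 9.54). The gauge is rough, since 7 passed the filter and 2 of these rose in both aged groups against young. The 4 member probe sets below the filter had group means of 4.33 to 6.12 and are not read further. Levels of different genes are not set against each other, since probe sets differ in how strongly they bind.

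No granule cell marker passed the test in any comparison. With limma's moderated test and Benjamini-Hochberg adjustment over all 27022 tested probe sets, 0 of 21 member probe sets passed an adjusted p of 0.05 between aged impaired and aged unimpaired, where 0.0111% of all probe sets did. Likewise 0 of 21 passed between aged unimpaired and young, against 0.137% of all probe sets, and 0 of 21 between aged impaired and young, against 1.63%. Between both aged groups together and young the count was again 0 of 21, against 0.947%. These shares are so low that 0 calls among 21 is near the background in each comparison.

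At an unadjusted p under 0.05 the members' counts were 2 of 21 for impaired against unimpaired, 2 for unimpaired against young, 1 for impaired against young and 0 for both aged groups against young, beside 8.09%, 8.19%, 15.8% and 13.4% of all tested probe sets. These were Prox1 and a minor Calb1 probe set in the first comparison, Tdo2 and the same Calb1 probe set in the second, and Dock10 in the third. There was also no member probe set whose 6 arrays of a group lay wholly above or below those of the group it was compared with. Such separation was seen for 0.525% of all tested probe sets between impaired and unimpaired, 0.766% between unimpaired and young, 2.01% between impaired and young, and 0.303% between all aged and young arrays.

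The direction of the means was mixed. Over the 10 main probe sets, 6 were higher and 4 lower in aged impaired than in aged unimpaired animals, with a median log2 difference of 0.07 beside 0.01 over all 13121 tested genes. Between aged unimpaired and young, 3 were higher and 7 lower, with a median of -0.06 beside -0.01. Impaired against young gave 5 higher and 5 lower, with a median of -0.04 beside -0.003. For both aged groups against young, 3 main probe sets were higher and 7 lower, with a median of -0.05 beside -0.006. Of all 13121 tested genes 52% were lower in that comparison. Counted over all 21 tested probe sets, several of which share a gene, 18 were lower and 3 higher in the aged animals than in the young. The comparisons share samples, so these counts are not independent of each other.

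The size of difference that the arrays could have missed is given by the intervals. The 95% intervals of the main probe sets in comparisons of 6 against 6 arrays reached 0.16 to 0.41 to either side on the log2 scale. Over the 10 genes, the outermost bounds for impaired against unimpaired were 0.694-fold (Trpc6) and 1.60-fold (Dsp). They were narrower for other genes, such as Calb1 (0.853-fold to 1.06-fold) and C1ql3 (0.857-fold to 1.10-fold).

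**Figure D1:**
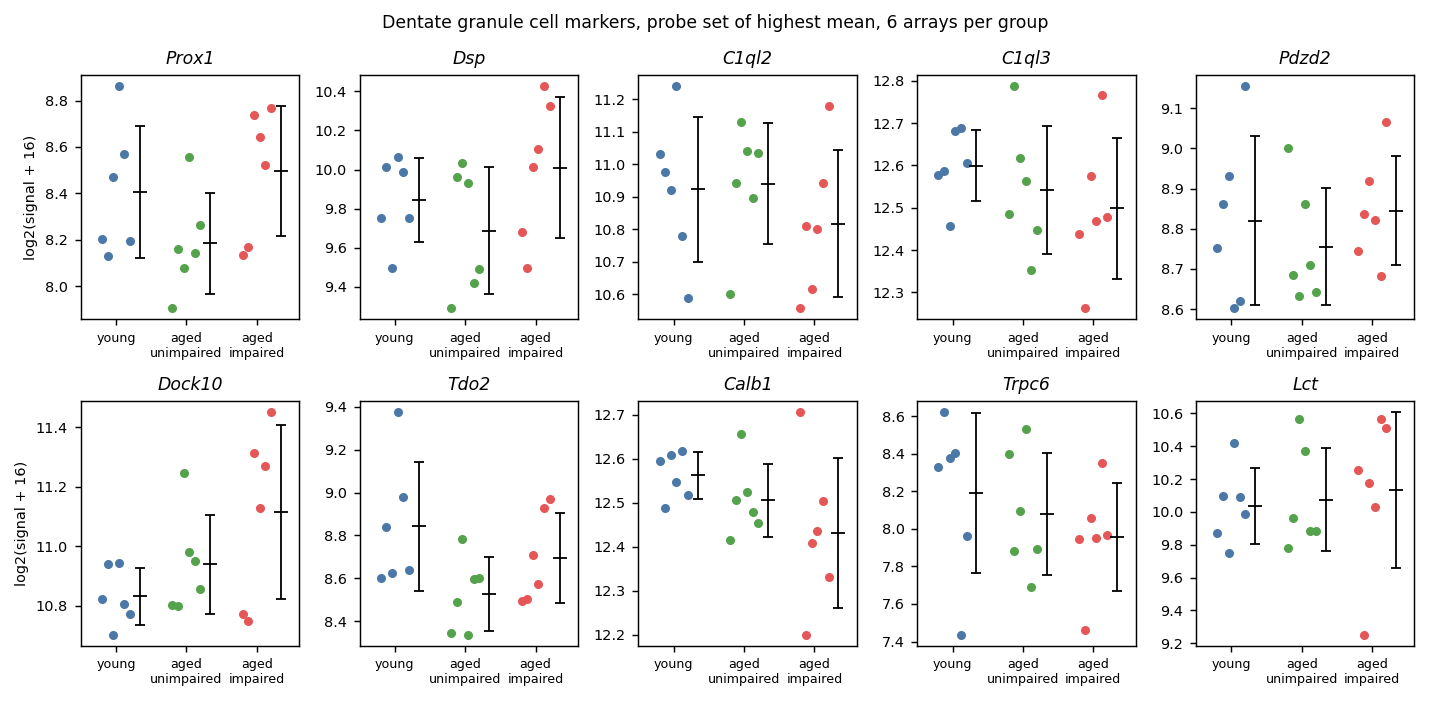
Level of the main probe set of each granule cell marker on each array, as log2(signal + 16), in young, aged unimpaired and aged impaired hippocampus (6 arrays each). Points are arrays, and the bars beside them are the mean ± SD. In every panel the 3 groups overlap.

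Prox1, the homeobox transcription factor of granule cells, was read by 3 probe sets. On the main probe set (1437894_at) the young arrays ran from 8.13 to 8.86 with a median of 8.34, the aged unimpaired from 7.90 to 8.56 with a median of 8.15, and the aged impaired from 8.13 to 8.77 with a median of 8.58. The impaired arrays fell into 4 above and 2 below the unimpaired mean, and the groups overlapped throughout. The mean was 8.50 ± 0.28 (SD, n = 6) in impaired and 8.18 ± 0.22 in unimpaired animals, a difference of 0.31 ± 0.15 (SE) with a 95% interval of 0.0045 to 0.62. It did not pass after adjustment (adjusted p = 0.611). The other Prox1 probe sets had differences of 0.21 ± 0.15 and 0.11 ± 0.20 in the same comparison.

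C1ql2 and C1ql3 organise synapses by binding presynaptic neurexins and postsynaptic kainate-type glutamate receptors. C1ql2 ran from 10.59 to 11.24 in young animals (median 10.95), from 10.60 to 11.13 in unimpaired (median 10.99) and from 10.56 to 11.18 in impaired (median 10.81). The 3 ranges nearly coincided, and the impaired minus unimpaired difference was -0.12 ± 0.12 (95% interval -0.38 to 0.13; adjusted p = 0.821).

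C1ql3 was read by 3 probe sets, all of them tested. Its main probe set (1451620_at) ran from 12.46 to 12.69 in young (median 12.60), from 12.35 to 12.79 in unimpaired (median 12.52) and from 12.26 to 12.77 in impaired animals (median 12.47). The young arrays lay within the range of each aged group. A second probe set (1425175_at) had all 6 impaired arrays below the young mean, with a difference of -0.16 ± 0.08 (interval -0.34 to 0.02; adjusted p = 0.373). On the last (1425176_at) the largest difference was -0.22 ± 0.13, between unimpaired and young (adjusted p = 0.687).

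The other genes of this synaptic system were counted from a list of C1ql relatives, kainate receptor subunits and their partners. Of its 11 members, 1 fell and 0 rose between impaired and young, and none passed in the other 3 comparisons (limma). The gene that fell was C1ql1, the family member known from climbing fibres, whose mean was 7.42 in impaired against 7.99 in young animals (-0.57 ± 0.11, adjusted p = 0.0142). Against the unimpaired group its difference was -0.45 ± 0.11 with an adjusted p of 0.278.

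Dsp encodes desmoplakin, which links desmosomes to intermediate filaments in epithelia and marks granule cells among hippocampal neurons. Its main probe set (1435494_s_at) ran from 9.50 to 10.06 in young (median 9.87), from 9.29 to 10.03 in unimpaired (median 9.71) and from 9.50 to 10.43 in impaired animals (median 10.06). The brightest arrays were impaired, but the dimmest 2 impaired arrays lay below the unimpaired mean. The impaired minus unimpaired difference was 0.32 ± 0.17 (interval -0.03 to 0.68; adjusted p = 0.656). The other bright probe set (1435493_at) had the same sign, at 0.26 ± 0.21. A further, dim probe set (1427610_at) had the opposite sign, at -0.27 ± 0.20. Among the other desmosome genes 4 of 6 were tested, and 0 passed in any comparison.

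Dock10, an exchange factor that activates the small GTPase Cdc42, had the lowest adjusted p of the members in the comparison of impaired with young. Its main probe set (1435343_at) ran from 10.70 to 10.95 in young (median 10.81), from 10.80 to 11.25 in unimpaired (median 10.90) and from 10.75 to 11.45 in impaired animals (median 11.20). Of the impaired arrays, 4 lay above every young array and 2 lay inside the young range. The means were 10.83 ± 0.10 in young and 11.11 ± 0.29 in impaired animals, a difference of 0.28 ± 0.12 (interval 0.04 to 0.53; adjusted p = 0.238). Its dim second probe set (1439247_at) gave 0.03 ± 0.20. Of the related DOCK proteins and Cdc42 genes, 5 were tested and 0 passed.

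Pdzd2 encodes a protein of many PDZ domains. It ran from 8.60 to 9.16 in young (median 8.81), from 8.63 to 9.0 in unimpaired (median 8.70) and from 8.68 to 9.07 in impaired animals (median 8.83). Each group covered nearly the same range, with an impaired minus unimpaired difference of 0.09 ± 0.10 (interval -0.12 to 0.30, limma adjusted p = 0.846). On the dim second tested probe set of Pdzd2 (1445203_at) the same difference was -0.03 ± 0.10. There all 6 unimpaired arrays lay below the young mean (unimpaired minus young -0.10 ± 0.10, limma adjusted p = 0.84).

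Calb1 encodes calbindin, the calcium buffer that mature granule cells hold in large amounts, and 3 of its 4 probe sets were tested. On the main one (1417504_at) the young arrays ran from 12.49 to 12.62 (median 12.57), the unimpaired from 12.41 to 12.66 (median 12.49) and the impaired from 12.20 to 12.71 (median 12.42). In each aged group 5 of 6 arrays lay below the young mean and 1 above it. The impaired minus young difference was -0.13 ± 0.07 (interval -0.29 to 0.02; adjusted p = 0.405).

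The probe sets of Calb1 did not order the groups alike. On 1448738_at the unimpaired arrays ran from 8.04 to 8.43 (median 8.27), below young (8.26 to 8.85, median 8.44) and impaired (8.34 to 8.73, median 8.50). All 6 unimpaired arrays lay below the young mean and all 6 impaired arrays above the unimpaired mean, although the ranges overlapped. Impaired minus unimpaired was 0.26 ± 0.10 (adjusted p = 0.538), the lowest adjusted p of any member in that comparison, and unimpaired minus young was -0.25 ± 0.10 (adjusted p = 0.519). On the main probe set and on 1456934_at the impaired minus unimpaired difference had the other sign, at -0.07 ± 0.07 and -0.14 ± 0.11. Of the other calcium-binding protein genes, 9 of 12 were tested and 0 passed in any comparison.

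Trpc6, a receptor-operated cation channel, was read by 1 probe set. It ran from 7.44 to 8.62 in young (median 8.35), from 7.69 to 8.53 in unimpaired (median 7.99) and from 7.46 to 8.35 in impaired animals (median 7.96). Within the young group the arrays alone spanned more than the aged groups did, and impaired minus young was -0.23 ± 0.19 (interval -0.64 to 0.17; adjusted p = 0.594). Of the other TRPC channels 5 were tested and 0 passed.

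Tdo2 encodes tryptophan dioxygenase, which opens the kynurenine pathway of tryptophan breakdown. The main probe set (1419093_at) ran from 8.60 to 9.38 in young (median 8.74), from 8.34 to 8.78 in unimpaired (median 8.54) and from 8.50 to 8.97 in impaired animals (median 8.64). All 6 unimpaired arrays lay below the young mean, which the highest young array raised. The unimpaired minus young difference was -0.32 ± 0.13 (interval -0.59 to -0.04; adjusted p = 0.524). A second probe set (1449337_at) had its largest difference between impaired and young, at -0.33 ± 0.16 (adjusted p = 0.328). For both aged groups against young the main and second probe sets had the same sign, at -0.23 ± 0.11 and -0.28 ± 0.14. Averaged over these probe sets the difference was -0.26 ± 0.10 (limma adjusted p = 0.247). Of 10 further kynurenine pathway genes only 2 passed the filter, and 0 passed the test.

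Lct encodes lactase, an intestinal enzyme whose transcript is found in mouse granule cells. It ran from 9.75 to 10.42 in young (median 10.04), from 9.78 to 10.57 in unimpaired (median 9.92) and from 9.25 to 10.57 in impaired animals (median 10.22). The lowest array was impaired and the highest unimpaired and impaired arrays were level, and impaired minus unimpaired was 0.06 ± 0.19 (interval -0.35 to 0.46; adjusted p = 0.962). The spread between arrays of a group was large for its level: its SD within groups (0.36) was above that of 98.4% of genes of similar brightness. The like value was 96.8% for Dsp (SD 0.31), and at the other end 36.3% for Pdzd2 (SD 0.17).

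**Figure D2:**
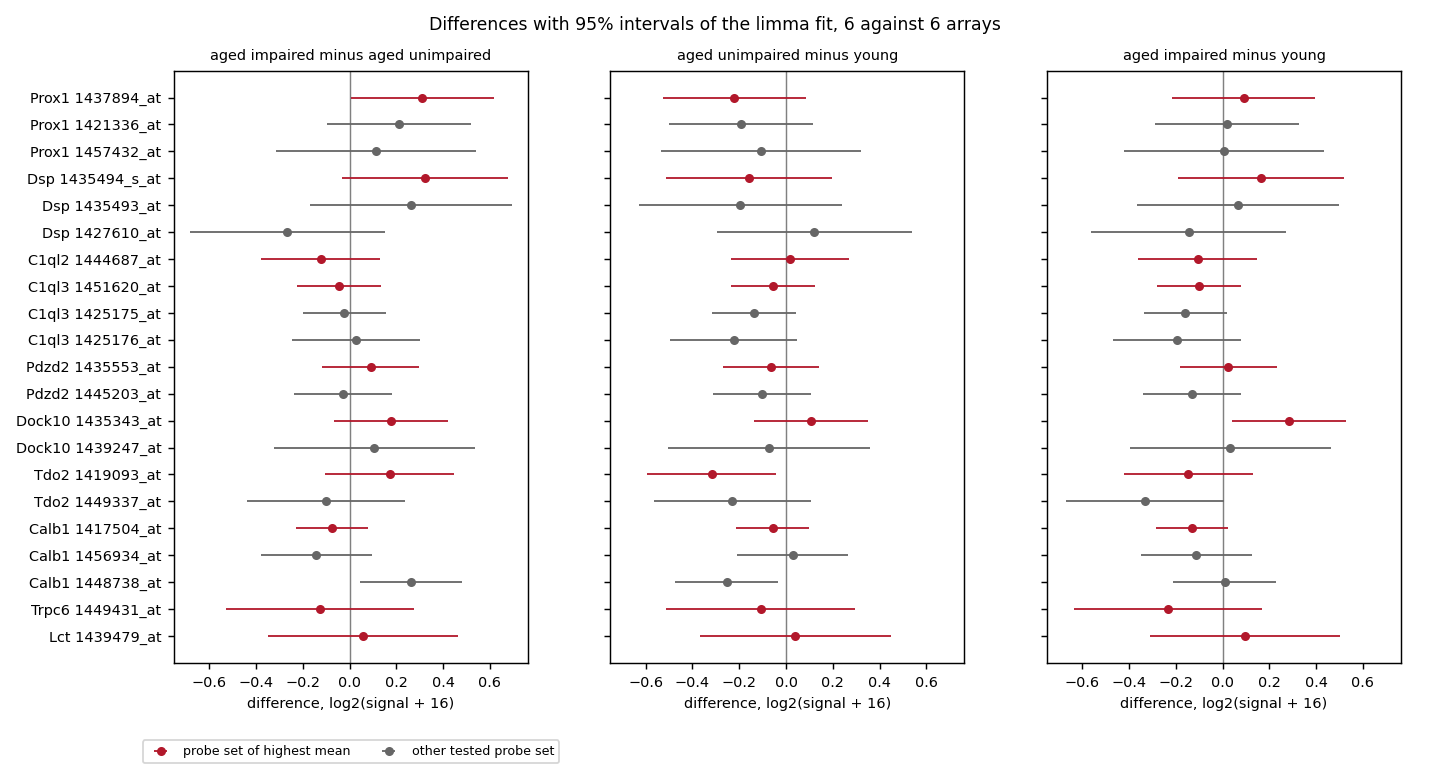
Differences between group means on the log2(signal + 16) scale for the 21 tested probe sets of the granule cell markers, with 95% intervals from limma, 6 against 6 arrays. Red marks the main probe set of a gene and grey its other tested probe sets; the interval touches 0 or crosses it for most, and none passed an adjusted p of 0.05.

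Other dentate genes and neighbouring cell types were read from gene lists, which were chosen with earlier results of these data known. Of 12 further genes enriched in the dentate gyrus 11 were tested and 0 passed in any comparison, with a median difference of -0.03 between impaired and unimpaired and -0.12 between both aged groups and young. Npnt, a matrix protein (-0.36 ± 0.16, adjusted p = 0.333), and Synpr, a synaptic vesicle protein (-0.17 ± 0.07, adjusted p = 0.313), had the lowest adjusted p of these for both aged groups against young. Of 8 tested genes of newborn neurons, the cells that become granule cells, 2 fell in both aged groups against young: Sox11 by 0.52 ± 0.08 (adjusted p = 0.00223) and Dpysl3 by 0.50 ± 0.07 (adjusted p = 0.0023).

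Markers of other cells moved with the groups, and their part in the members' values was not tested. Of 12 microglial genes 9 rose in the aged animals, and the mean of the list ran from 9.62 to 9.90 in young, 10.16 to 10.75 in unimpaired and 10.25 to 10.85 in impaired animals. All 8 tested CA1 pyramidal genes had a lower mean in impaired than in unimpaired animals (median -0.26), although 0 passed. The mean of the choroid plexus list ran from 6.99 to 10.85 over the arrays, and all 14 of its tested genes were higher in impaired than in unimpaired animals (median 0.85) with 0 passing. Of 9 oligodendrocyte genes 2 rose between impaired and young animals, the myelin genes Mog (0.46 ± 0.08, adjusted p = 0.00969) and Mag (0.63 ± 0.14, adjusted p = 0.0249). A higher mean in impaired than in unimpaired animals was seen for 8 of the 9 (median 0.24), and for 6 of the 10 granule cell markers. Gfap, the astrocyte filament gene, was the 1 of 9 astrocyte genes that rose in impaired against young animals (0.77 ± 0.14, adjusted p = 0.00992). None of the genes tested for interneurons (9), mossy cells (5) or CA2 and CA3 pyramidal cells (11) passed in any comparison.

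A subset of the markers varied together from array to array. To see this, each array's level was taken as its deviation from the mean of its group, and each of the 45 pairs of genes was correlated over the 18 arrays, with p from 100000 permutations of arrays within groups and Benjamini-Hochberg adjustment over the 45. Of these pairs 36 were positive, the median r was 0.34, and 7 passed an adjusted p of 0.05, all positive; by Spearman's rho 9 passed. The other 2 passing by rho were Dsp with C1ql2 (rho 0.68, adjusted p = 0.0249) and C1ql3 with Lct (rho 0.68, adjusted p = 0.023). No such count was made for pairs of other genes, so these counts have no background beside them. Of all other tested genes, 0.107% had a higher r with Dsp than Lct did, and 2.57% a higher r than Tdo2 did.

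Dsp, Lct, Dock10 and Tdo2 formed a set in which every pair passed. C1ql3 passed by r only with Dsp, and had r = 0.43 with Dock10 and 0.42 with Tdo2. C1ql2 had higher values with these, 0.55 and 0.63, neither of which passed. Dsp and Lct had r = 0.82 and rho = 0.82 (permutation p = 7e-05, adjusted p = 0.00315), and r = 0.89 within young, 0.82 within unimpaired and 0.82 within impaired animals. Without the 2 arrays farthest from the median of Dsp the value was 0.75. Dsp and C1ql3 had r = 0.81 and rho = 0.81 (permutation p = 0.00031, adjusted p = 0.00698), with 0.87, 0.78 and 0.81 within the groups and 0.77 without the 2 farthest arrays.

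Dock10 followed both. With Dsp it had r = 0.76 and rho = 0.73 (permutation p = 0.0017, adjusted p = 0.0162), and 0.88, 0.53 and 0.89 within young, unimpaired and impaired animals. With Lct it had r = 0.74 and rho = 0.72 (permutation p = 0.0018, adjusted p = 0.0162), and 0.82, 0.87 and 0.69 within the groups. Without the 2 arrays farthest from the median of Dsp the first became 0.68. Without the 2 farthest from the median of Dock10 the second became 0.82. Arrays that were extreme for the other gene of a pair were not left out.

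Tdo2 was tied to the set less evenly. It had r = 0.65 and rho = 0.65 with Dock10 (permutation p = 0.00143, adjusted p = 0.0162), r = 0.63 and rho = 0.58 with Lct (permutation p = 0.00216, adjusted p = 0.0162) and r = 0.62 and rho = 0.63 with Dsp (permutation p = 0.00629, adjusted p = 0.0404). Leaving out the 2 arrays farthest from the median of Dock10, of Tdo2 and of Dsp in turn gave 0.62, 0.54 and 0.56. Within the unimpaired animals the values were 0.67, 0.37 and only 0.26, while in young and impaired animals they lay between 0.69 and 0.94; differences between the groups were not tested.

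**Figure D3:**
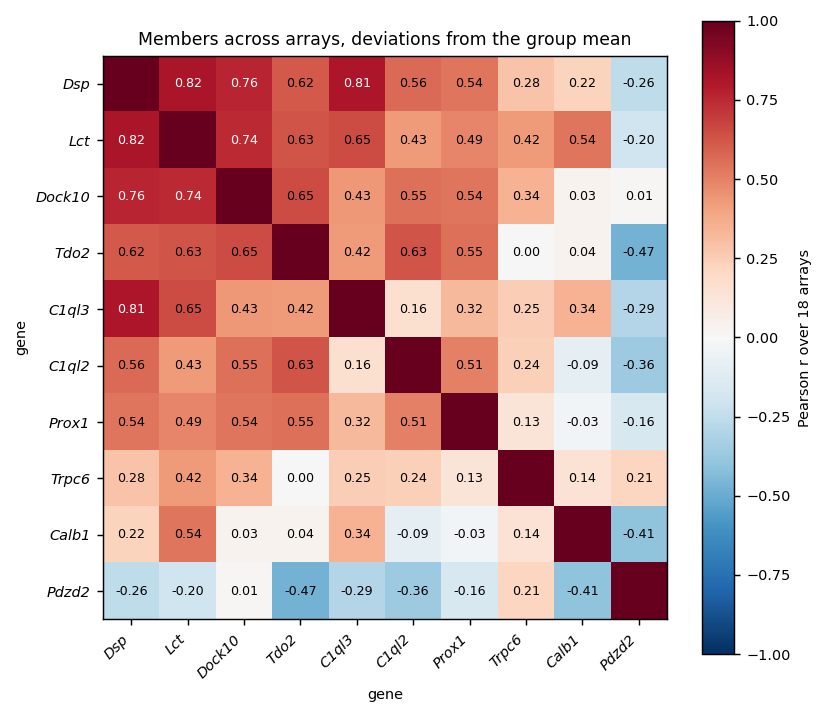
Pearson r between the main probe sets of the 10 markers over 18 arrays, each taken as its deviation from its group mean; colour and number give r. Dsp, Lct, Dock10 and Tdo2 form a block of high r, and C1ql3 is high with Dsp and Lct. Pdzd2 is negative with 7 of the other 9 genes and Calb1 is near 0 with most.

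The promoters of Dsp and of the 4 genes whose correlation with Dsp passed by r are shown because these 4 varied with Dsp. They are the 250 bases before the annotated start, 5' to 3' on the gene's strand, from RefSeq on build GRCm38.p6, where 9 of the 10 members had an entry. Capitals mark matches on either strand to GGGCGG (GC box), to the TATA box TATAAA, to CAGATG (an E-box), to CAGCTG (another E-box) or to TGACG (the core of a cAMP response element). No matches overlapped in these 5 windows. Dsp lies on the plus strand at chr13:38151044-38151293, Dock10 on the minus strand at chr1:80758554-80758803 (the first of 2 entries), and C1ql3 on the minus strand at chr2:13010865-13011114. Tdo2 lies on the minus strand at chr3:81975729-81975978 and Lct on the minus strand at chr1:128328319-128328568.
Dsp: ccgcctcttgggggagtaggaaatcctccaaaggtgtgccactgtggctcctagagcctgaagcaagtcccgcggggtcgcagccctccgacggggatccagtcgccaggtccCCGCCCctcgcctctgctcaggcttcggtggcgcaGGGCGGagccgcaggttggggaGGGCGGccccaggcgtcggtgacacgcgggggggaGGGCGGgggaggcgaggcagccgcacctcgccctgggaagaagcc
Dock10: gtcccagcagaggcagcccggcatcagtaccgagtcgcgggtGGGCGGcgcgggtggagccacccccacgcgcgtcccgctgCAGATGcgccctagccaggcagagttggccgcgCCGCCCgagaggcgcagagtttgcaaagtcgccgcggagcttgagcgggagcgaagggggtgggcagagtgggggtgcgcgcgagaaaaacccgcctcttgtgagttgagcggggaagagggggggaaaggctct
C1ql3: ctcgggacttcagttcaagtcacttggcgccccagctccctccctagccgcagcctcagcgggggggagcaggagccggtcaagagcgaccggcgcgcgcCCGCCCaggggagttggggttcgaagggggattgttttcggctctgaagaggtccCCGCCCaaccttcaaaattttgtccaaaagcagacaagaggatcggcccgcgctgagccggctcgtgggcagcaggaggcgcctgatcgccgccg
Tdo2: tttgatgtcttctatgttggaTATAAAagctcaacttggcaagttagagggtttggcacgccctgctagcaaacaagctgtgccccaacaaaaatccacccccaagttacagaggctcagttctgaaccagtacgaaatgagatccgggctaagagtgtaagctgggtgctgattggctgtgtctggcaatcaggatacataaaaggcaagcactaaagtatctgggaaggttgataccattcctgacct
Lct: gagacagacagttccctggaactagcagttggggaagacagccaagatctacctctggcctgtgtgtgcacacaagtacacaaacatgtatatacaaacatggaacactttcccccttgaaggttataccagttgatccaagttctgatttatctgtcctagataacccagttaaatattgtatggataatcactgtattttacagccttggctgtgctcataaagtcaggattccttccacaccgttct
The 5 windows were of different kinds. Those of Dsp (4 GC boxes, 22 CG pairs), Dock10 (first entry, 2 GC boxes, 1 CAGATG, 27 CG pairs) and C1ql3 (2 GC boxes, 23 CG pairs) were rich in CG, at or above the 85.2nd percentile of all 32851 promoters, whose median was 6. The second Dock10 entry, not printed, had no GC box, 1 CAGATG, 1 CAGCTG and 5 CG pairs, at the 44.4th percentile. Tdo2 had 1 TATAAA and 3 CG pairs, and Lct had no match and 1 CG pair. Over all promoters the same length of sequence held GGGCGG in 32.7%, TATAAA in 12.4%, CAGATG in 14.4%, CAGCTG in 13.0% and TGACG in 17.8%, so none of these motifs was shared by all 5, and a match is only a match of letters.

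Some arrays were high or low for several of these genes at once, while others were split. By deviation from the group mean, aged impaired replicate 1 was low for Dsp (-0.33) and Dock10 (-0.34) but not for Lct (0.13). Unimpaired replicate 2 was high for Dsp (0.27) and C1ql3 (0.25) but not for Lct (-0.11) or Dock10 (-0.14). Aged impaired replicate 2 lay farther below its group mean than any other array for each of 5 genes. Its deviations were -0.51 for Dsp, -0.88 for Lct, -0.37 for Dock10, -0.24 for C1ql3 and -0.23 for Calb1. In level, other arrays were lower for Dsp and Dock10. Aged impaired replicates 5 and 6 were high, with Dsp at 0.42 and 0.31 and Lct at 0.43 and 0.38. Each group held both kinds: unimpaired replicate 3 was high (Dsp 0.35, Lct 0.49) and unimpaired replicate 1 low (Dsp -0.40), and young replicate 3 was low for Dsp (-0.35) while young replicate 4 was high for Tdo2 (0.53) and Prox1 (0.46). Without aged impaired replicate 2 the median r over the 45 pairs was 0.22, the lowest value with any 1 array left out, and the r of Dsp with Lct was 0.78. That array also stood apart beyond the members. It had the lowest array weight of the 18 (0.58), a measure over all tested probe sets of how closely an array follows the fit. Its mean of the CA1 list (10.46) was the lowest of all arrays and its mean of the microglial list (10.85) the highest.

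**Figure D4:**
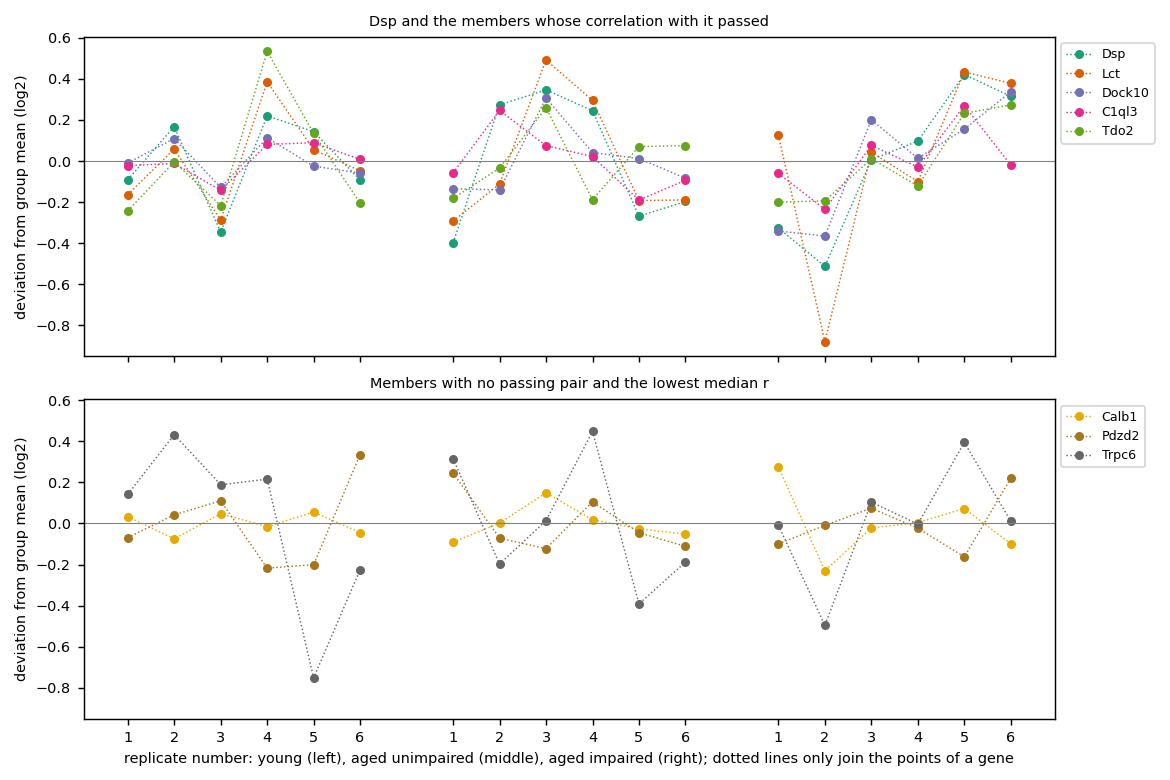
Deviation of each array from its group mean (log2) for Dsp and the 4 markers whose correlation with it passed (top) and for Calb1, Pdzd2 and Trpc6 (bottom), with replicates 1 to 6 of each group along the axis. The top genes tend to go up and down together, and Dsp, Lct, Dock10 and C1ql3 are lowest at aged impaired replicate 2, where Lct reached -0.88.

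Prox1, C1ql2, Calb1, Trpc6 and Pdzd2 had no pair that passed by r. The median r with the other 9 members was 0.49 for Prox1 and 0.43 for C1ql2, close to that of Dsp (0.56), Tdo2 (0.55), Dock10 (0.54) and Lct (0.54). It was 0.34 for C1ql3, 0.24 for Trpc6, 0.04 for Calb1 and -0.26 for Pdzd2. Calb1 and Pdzd2 thus had the lowest values of the 10. With single arrays left out, the value for Calb1 ran from -0.12 (without aged impaired replicate 2) to 0.36 (without aged impaired replicate 1). That for Pdzd2 stayed negative, from -0.35 (without aged impaired replicate 6) to -0.12 (without aged unimpaired replicate 1), with -0.17 without aged impaired replicate 5.

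Set against all 13120 other tested genes by their r with Dsp, Lct ranked 15, C1ql3 18, Dock10 53, Tdo2 338, C1ql2 541 and Prox1 656. Thus 6 of the 9 other members lay in the top 5% of genes for Dsp, as did 5 for Prox1 and 5 for Tdo2, but only 1 for Calb1 and 0 for Pdzd2 and Trpc6. Of the other tested dentate genes, 6 of 11 also lay in the top 5% for Dsp, led by Stxbp6, a SNARE-binding protein (r = 0.89, rank 2), and Lrrtm4, a synaptic adhesion protein (r = 0.88, rank 4). Rfx3 (0.75), Plk5 (0.71), Npnt (0.69) and Tiam1 (0.65) followed. Synpr (0.01), Pdyn (0.08) and Ahcyl2 (-0.22) did not share the pattern. The count was not limited to dentate genes, since 2 of 8 tested CA1 genes also lay in the top 5% for Dsp. For Lct it was 6 of 11 dentate and 4 of 8 CA1 genes, for Prox1 4 of 11 and 0 of 8, and for Calb1 0 of 11 and 2 of 8.

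Genes of other cells moved along this axis too. Over the 18 arrays Dsp had r = 0.86 with the mean of the other dentate genes, 0.58 with the CA1 list, -0.57 with the astrocyte list, -0.46 with the subiculum and cortex list and -0.42 with the choroid plexus list. For Lct the CA1 list gave 0.71 and for C1ql3 the subiculum and cortex list gave -0.77. The newborn neuron list gave -0.66 for Lct, -0.615 for Tdo2 and -0.26 for Dsp, and was positive only for Pdzd2 (0.17). The oligodendrocyte list gave 0.51 for Prox1 but -0.155 for Dsp. The 3' to 5' signal ratio, a measure of RNA quality, had r = -0.33 with Dsp. With the other genes of the set it had -0.46 (C1ql3), -0.32 (Dock10), -0.25 (Lct) and -0.08 (Tdo2). These values describe arrays that share a scaling, and the part of dissection, cell makeup or RNA quality in the members' joint variation was not tested.

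The genes most like each member over the 18 arrays were named by the highest r. For Dsp they were Bcl11b, a transcription factor (r = 0.89), Stxbp6 (0.89) and Epha7, an ephrin receptor (0.89). For Lct they were Nr3c2, the mineralocorticoid receptor (0.96), Btbd3 (0.93) and Cdc40 (0.90). For C1ql3 the first was again Epha7 (0.89), followed by Zfp709 (0.89) and Zeb2 (0.88). Dock10 was nearest to Cnnm1 (0.89), Fry (0.89) and Dgkh (0.88), and Tdo2 to Atp2b1, a plasma membrane calcium pump (0.83), Scand1 (0.79) and Cyp7b1 (0.78).

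The remaining members had different nearest genes. Prox1 was nearest to Nat2 (0.84), Ror1 (0.83) and Tle1 (0.83), and C1ql2 to Plekha2 (0.80), Sipa1l2 (0.79) and Mapk12 (0.75). Calb1 was nearest to Olfml2b (0.87), Trpc6 to Spindoc (0.84) and Pdzd2 to Zfp316 (0.79). With 18 arrays and 13120 genes the highest of many r values is high in any case, so these are descriptions.

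How well probe sets of 1 gene followed each other bounds what can be read from a single probe set. Of 15 such pairs all were positive, with a median r of 0.37, and 3 passed. The brighter Dsp pair had r = 0.94 (rho 0.94, permutation, adjusted p = 0.00015), the C1ql3 pair 1425175_at and 1425176_at had 0.85 (rho 0.87, adjusted p = 0.0018), and the Prox1 pair 1437894_at and 1421336_at had 0.62 (rho 0.57, adjusted p = 0.0396, but 0.0537 by rho). For Calb1 the main probe set had r = 0.26 with 1448738_at and 0.56 with 1456934_at. The pairs of Dock10 (0.08), Pdzd2 (0.15) and Tdo2 (0.22) hardly followed each other, and each of them includes a dim probe set.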

How the data were processed

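Total RNA of 18 hippocampus samples was hybridised to Affymetrix mouse arrays. The authors deposited 1 table of signal intensities, which came from MAS5, as the submitters' processing notes say; its version is not given in the sources used here. Deposited intensities ran from 0 to 27601.2, with a 2% trimmed mean of 150 on every array, and the array medians ran from 23.5 to 30.5. Sequencing depth does not apply; the number of arrays limits the precision, with a median SE of 0.12 for a difference of 2 group means. No detection calls, scan dates or batches were in the labels, and no 2 arrays held the same values.

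Signals were multiplied to bring the trimmed mean of every array to 500, 16 was added, and log2 was taken. Fold changes are on this scale, which makes those of dim genes too small. Before testing, 64 control probe sets and the 40% with the lowest mean were left out. Group means over all 18 arrays were fitted with limma 3.58.1 in R 4.3.3 and adjusted by Benjamini-Hochberg over 27022 probe sets. The fit and the correlations were tested on simulated data. Probe sets were named from the platform annotation, updated through RefSeq (GRCm38.p6): 34945 had 1 symbol, 932 several and 9160 none. By the rule for named genes, a list gave up to 4 genes of lowest p among those that passed or, where none did, the 2 of lowest p for both aged groups against young, and each member gave the 3 genes of highest r; only lists near to granule cells have theirs printed. The dentate genes set against Dsp lie outside that rule and were chosen after their values were seen.

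The members and all gene lists were chosen with earlier results of these data known. Alternatives were another normalization, offsets, filters, covariates, array weights, the replicate block and each array left out; averaging a gene's probe sets and the settings of the correlations were added after seeing the data.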

Additional observations from a re-analysis of the deposited data

Results flagged for a closer look

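Of 63 groups of 6 arrays (21 tested probe sets in 3 groups), 1 held an array far from the others: on C1ql3 probe set 1425175_at, young replicate 2 was at 10.58, with the next young array at 10.82. Chance alone gives such an array in about 1 in 20 groups. On the main C1ql3 probe set the same array was at 12.59, inside the range of the other young arrays.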

How the results depend on the processing

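The count of member probe sets passing an adjusted p of 0.05 stayed at 0 in all 28 settings for each comparison of 2 groups, and in all 27 for both aged groups against young. The lowest adjusted p reached was 0.395 for impaired against unimpaired (Calb1 1448738_at, 3' to 5' ratio as a covariate), 0.389 for unimpaired against young (C1ql3 1425176_at, without young replicate 2), 0.114 for impaired against young (Dock10 1435343_at, array weights) and 0.17 for both aged groups against young (C1ql3 1425176_at, without young replicate 2). Of 2315 single differences, none of them past the threshold, 94 changed sign. Replicate numbers did not pair the samples: same-numbered arrays had deviations correlated between -0.25 and 0.096, and with the replicate block 0 member probe sets passed in any comparison. The joint variation kept its direction: over single arrays left out the median r ran from 0.22 to 0.43, and over other settings from 0.28 to 0.35. The r of Dsp with C1ql3 was 0.64 without taking off group means.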
